A study of Homo sapiens with 4 samples.

Results

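Among the m6A regions mapped in human embryonic stem cells, 8 protein-coding genes were followed that each held several separate regions in their exons: PCLO, RGS3, PLEKHG4B, ALPK3, VTI1A, ONECUT2, LCOR and MKI67. They were chosen by that count, in the same set of regions described here, so the counts are a description and carry no test. A region was taken for a gene when its annotated transcript belonged to the gene, when the gene was the one with the nearest start site, or when the region overlapped the gene body. This gave 32 of the 9900 deposited regions, of which 28 were exonic, meaning that HOMER put the centre in an exon of one of the gene's transcripts, coding, untranslated or non-coding. The other 4 lay outside exons.

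The cells were wild-type H1, an established human embryonic stem cell line kept in the primed state, with no knockout and no other treatment in any library. There were 4 libraries from total RNA, 2 before (input) and 2 after (m6A_IP) pull-down with an antibody against m6A. The authors deposited 1 intersected set of regions on hg38 that gives positions alone, so no value here has a replicate error, and the depth of the libraries is unknown. The files give no RNA level. The cell type could therefore not be checked against its markers, and no region in a gene may mean little RNA as well as little m6A.

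N6-methyladenosine (m6A) is an internal modification of mRNA, written by a complex around METTL3 and METTL14 at adenosines of a short consensus and read by proteins that act on splicing, stability and translation. In mRNAs it is known to be frequent in long internal exons, around the stop codon and in the 3′ UTR. Antibody pull-down of fragmented RNA finds it at the scale of the fragments, so 1 region may hold 1 modified adenosine or several. The sequence under the regions was not used here. None of the 32 regions overlapped a RefSeq microRNA or a RefSeq promoter window (300 bases around a start, 13 windows for these 8 genes). Regions could still lie near a start, as 1 RGS3 region was centred 477 bp downstream of one.

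PCLO held 6 exonic regions, RGS3 held 4, and the remaining 6 genes held 3 each. Of 20056 protein-coding genes, 2569 (12.8%) held at least 1, 245 (1.22%) held 2 or more and 20 (0.0997%) held 3 or more. The 8 genes were thus taken from those 20, and the other 12 were not members. The 6 members with 3 regions were the lowest in the list, and just below them stood 225 genes with exactly 2. PCLO had the highest count of all, FAT4 followed with 5, and RGS3 was 1 of 2 genes with 4.

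**Figure D1:**
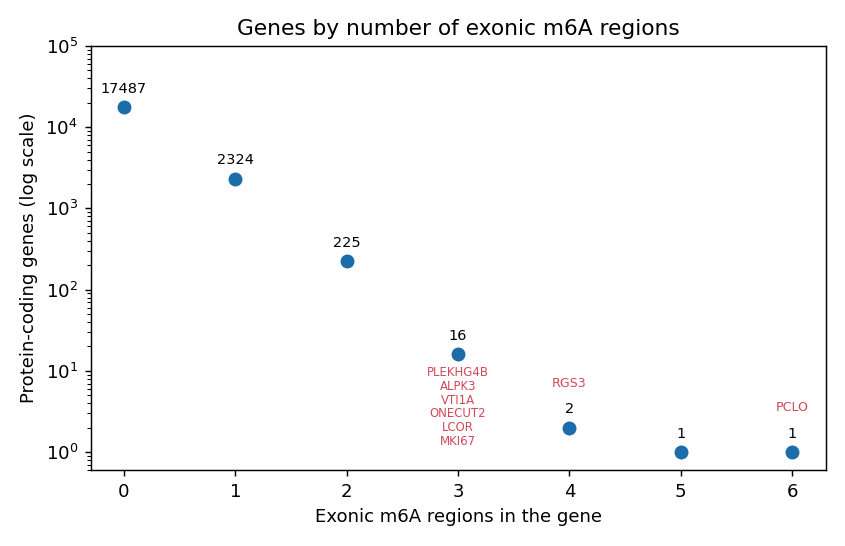
Number of protein-coding genes (vertical axis, log scale) at each number of exonic m6A regions (horizontal axis), with the 8 genes named in red. There were 17487 genes with none, 2324 with 1, 225 with 2 and 16 with 3, and 6 of those 16 were among the 8.

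Together the 28 regions lay in coding exons in 17 cases, in 3′ UTRs in 9, in a 5′ UTR in 1 and in a non-coding exon in 1. Coding exons made up 60.7% (95% exact binomial interval 40.6 to 78.5%) and 3′ UTRs 32.1% (15.9 to 52.4%). Over all 2841 exonic regions of protein-coding genes these shares were 66.9% and 24.6%, inside both intervals. Over the 39 regions of the 12 other genes with 3 or more they were 87.2% and 7.69%, outside both. The difference was not tested. The intervals cover counting error only and treat regions of 1 gene as separate. HOMER's detailed label named no repeat at any of the 28 centres. That label gives 1 feature per centre, so for centres labelled exonic it cannot show whether a repeat was also present.

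The genes fell into forms that differed in where their regions lay. In PCLO, ALPK3 and PLEKHG4B the regions lay in different exons along 1 annotated transcript. In MKI67, also along 1 transcript, 2 regions lay in the same exon, 2685 bp apart, and 1 in another exon. In RGS3, VTI1A and LCOR they were annotated to 4, 3 and 2 different transcripts. All regions of VTI1A and LCOR were in last exons, as were 2 of the 4 in RGS3. ONECUT2, a gene annotated with 2 exons, had regions in both. All 18 exonic regions of PCLO, PLEKHG4B, ALPK3, ONECUT2 and MKI67 were annotated within 1 transcript per gene. For PLEKHG4B and ALPK3 only 1 RefSeq transcript is listed, so no other outcome was possible. PCLO, ONECUT2 and MKI67 list 7, 5 and 4, and RGS3, VTI1A and LCOR list 14, 11 and 4. Each region is annotated to 1 transcript, even where others may share the exon. Of the 12 other genes with 3 or more exonic regions, 10 also had all of theirs in 1 transcript, as did 183 of the 225 genes with exactly 2.

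**Figure D2:**
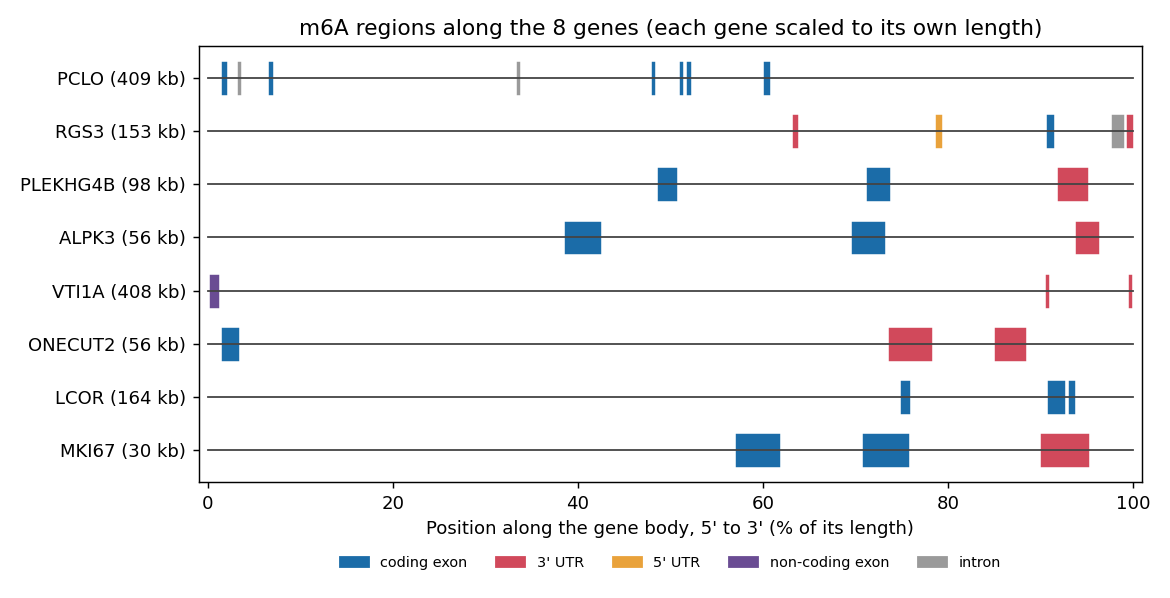
Each line is 1 gene drawn from its 5′ boundary (0%) to its 3′ boundary (100%), scaled to its own length (given in kb beside the name), and each box is 1 m6A region over the gene body, coloured by the feature at its centre. Box widths are to scale plus a thin outline that keeps narrow boxes visible; the furthest PCLO region is centred at 60.4% of the gene, and each of the other 7 genes has one centred at 86.7% or beyond.

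PCLO encodes piccolo, a very large scaffold protein of the presynaptic active zone, where synaptic vesicles are docked and released. The gene covers 408873 bp of chromosome 7 (positions 82754012 to 83162884, minus strand), longer than 97.7% of protein-coding genes. Its 6 exonic regions fell 1 in each of exons 2, 3, 4, 5, 6 and 7 of a 20-exon transcript, and every one was coding. From the 5′ end, the region of exon 2 lay at positions 83154978 to 83156588 (1611 bp), and that of exon 3 at 83134415 to 83135856 (1442 bp). The region of exon 4 lay at 82965786 to 82966781 (996 bp), after a gap of 167633 bp. These values put the centres of the first pair 7.1 and 27.7 kb from the 5′ boundary, and the centre of the next region 197 kb from it.

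The region of PCLO exon 5 lay at positions 82953273 to 82954361 (1089 bp), that of exon 6 at 82949586 to 82951197 (1612 bp) and that of exon 7 at 82914834 to 82916876 (2043 bp). Exons 5 and 6 gave the closest pair, 2075 bp apart. No exonic region was found in the last 160822 bp of the gene, and PCLO was the only one of the 8 genes with no region in a last exon. The 6 regions covered 8793 bp, or 2.15% of the gene body. PCLO also held both a region in intron 2 (828 bp, positions 83148791 to 83149618) and one in intron 3 (1026 bp, positions 83025298 to 83026323), numbered in another PCLO transcript. The first was centred in a HAL1ME repeat and the second in an L1PA3 repeat, both of the LINE class; the treatment of reads with several alignments is not stated in the labels.

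ALPK3 encodes an alpha kinase of heart and skeletal muscle, and the gene covers 56124 bp of chromosome 15 (positions 84817356 to 84873479, plus strand). Its regions lay in exons 5, 6 and 14 of 14. The first was 2145 bp wide (positions 84839024 to 84841168, coding), the next 1962 bp (84856416 to 84858377, coding) and the last 1298 bp (84870048 to 84871345, 3′ UTR). The neighbouring exons 5 and 6 thus each held a region, separated by 15247 bp, and the 3′ UTR region followed 11670 bp further. Together they covered 5405 bp, 9.63% of the gene body.

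PLEKHG4B, a member of a family of guanine nucleotide exchange factors for small GTPases, covers 97799 bp of chromosome 5 (positions 92168 to 189966, plus strand). Its regions lay in exons 3, 13 and 20 of 20, the last one in the 3′ UTR. They were 1896 bp (positions 139756 to 141651), 2279 bp (161894 to 164172) and 3038 bp (182089 to 185126) wide, so that all 3 were above the upper quartile of all exonic regions, 1835 bp. The first of them also lay within the body of LOC124900629, a protein-coding gene of the RefSeq table, and no strand setting is stated in the labels, so the gene it comes from cannot be told apart. It was the only one of the 28 that overlapped another gene of that table. A further region of 1271 bp (positions 67950 to 69220), annotated as intergenic and centred in a THE1C-int repeat of the LTR class, was given to PLEKHG4B only because its start site was the nearest, 23583 bp away. This further region, too, overlapped the body of LOC124900629.

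MKI67 encodes Ki-67, the proliferation marker that coats mitotic chromosomes. It was the shortest of the 8 genes, with 29765 bp on chromosome 10 (positions 128096659 to 128126423, minus strand). It held the densest regions, 10.1 exonic regions per 100 kb of gene body against 0.735 in VTI1A and 1.47 in PCLO. VTI1A held as many regions as MKI67, so their contrast restates body length. The median was 2.95 in all genes with an exonic region and 4.09 in the 12 other genes with 3 or more. Exon 13 of 15, coding, held 2 regions. They lay at positions 128108042 to 128109417 (1376 bp) and 128103888 to 128105356 (1469 bp), 2685 bp apart. A last region lay in the 3′ UTR in exon 15 (128098095 to 128099619, 1525 bp), 4268 bp further on. With all gaps below 5000 bp, merging regions closer than that left 1 region in MKI67, while PLEKHG4B, ALPK3, VTI1A and RGS3 kept all of theirs.

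ONECUT2, a homeobox transcription factor of the CUT class with roles in liver, pancreas and neural development, covers 55925 bp of chromosome 18 (positions 57435374 to 57491298, plus strand). Exon 1 of 2 held a coding region of 1012 bp (positions 57436201 to 57437212), centred 1332 bp from the 5′ boundary. Exon 2 held a pair in the 3′ UTR, 2511 bp (57476582 to 57479092) and 1815 bp wide (57482958 to 57484772), with 3865 bp between them. The gap between the exon 1 region and the first of this pair was 39369 bp. The last region ended 6526 bp before the 3′ boundary of the gene.

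RGS3 encodes a regulator of G protein signalling, which speeds GTP hydrolysis by G protein alpha subunits, and 14 RefSeq transcripts are listed for it, the most of the 8 genes. It covers 153009 bp of chromosome 9 (positions 113444730 to 113597738, plus strand). The first region (113541479 to 113542180, 702 bp) was in the 3′ UTR, exon 18 of 18, of 1 transcript, although it lay 55.9 kb before the 3′ boundary of the gene. The second (113565107 to 113565962, 856 bp) was in the 5′ UTR, exon 2 of 9, of another transcript and was centred 477 bp downstream of an annotated start. The same stretch of the gene thus held a transcript end and, downstream of it, a transcript start, each with a region.

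The next RGS3 region (113583491 to 113584595, 1105 bp) was coding, in exon 21 of 26 of a long transcript. The last one (113596803 to 113597671, 869 bp) was in the 3′ UTR of exon 15 of 15 of a further transcript and ended 67 bp before the 3′ boundary. Between these lay a region of 1756 bp (113594300 to 113596055) annotated to intron 3 of 4 of a short transcript, 747 bp from the last one and centred 1048 bp downstream of another start. The 4 exonic regions were narrow: 3 were below the lower quartile of all exonic regions, 1002 bp. With regions of at least 1000 bp alone, RGS3 kept 1.

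VTI1A encodes a SNARE protein of the trans-Golgi network and endosomes. The gene, 408381 bp of chromosome 10 (positions 112446988 to 112855368, plus strand), is about as long as PCLO, but its 3 regions lay at its ends. The first (112448038 to 112451425, 3388 bp, the widest of the 28) was in exon 3 of 3 of a short non-coding transcript, centred 2.74 kb from the 5′ boundary and 2128 bp upstream of the start of the neighbouring gene ZDHHC6. The others (112816808 to 112817734, 927 bp, and 112853695 to 112854739, 1045 bp) were in 3′ UTRs, in exon 8 of 8 and exon 9 of 9 of different transcripts. Each of the 3 was thus in the last exon of its own transcript, and 365382 bp lay between the first and the next. None had VTI1A as the gene with the nearest start, so by that naming VTI1A had 0 regions, and ALPK3 and LCOR had 1 each.

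LCOR encodes a ligand-dependent corepressor of nuclear receptors, and covers 163659 bp of chromosome 10 (positions 96832298 to 96995956, plus strand). All 3 regions were coding and in exon 8 of 8, but of 2 different transcripts. The first (96955016 to 96956337, 1322 bp) was annotated to one, and the others (96980888 to 96983853, 2966 bp, and 96984697 to 96985507, 811 bp) to the other transcript, 24550 bp downstream. The latter pair was 843 bp apart, the closest pair among the 8 genes, and counted as 1 when regions closer than 2000 bp were merged. The last region ended 10449 bp before the 3′ boundary.

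The last exon held 13 of the 28 regions (46.4%, interval 27.5 to 66.1%), against 67.6% of 2658 exonic regions of protein-coding genes in transcripts with more than 1 exon. A gene with regions in several exons of 1 transcript has a single last exon, so a lower share follows in part from the choice of the genes. Counting coding exons alone, the share was 3 of 17 (17.6%) in the 8 genes and 1002 of 1753 (57.2%) in all protein-coding genes. All 3 were regions of LCOR. The share was 71.5% in genes with exactly 1 exonic region, 52.0% in genes with exactly 2 and 43.6% in the 12 other genes with 3 or more. Within the 8 genes it was 8 of 10 in RGS3, VTI1A and LCOR, whose regions were annotated to several transcripts. In the other 5 genes it was 5 of 18 (27.8%). Several transcripts can bring several last exons, and PLEKHG4B and ALPK3 have only 1 listed transcript each. A last exon was hit at least once in 7 of the 8 genes.

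Strand made it possible to place each centre along its gene body. The median was 72.9% of the way from the 5′ to the 3′ boundary (quartiles 50.8 and 91.2%), against 82.7% (51.5 and 94.9%) over the 2328 exonic regions whose gene had a strand in the table, 81.9% of the 2841. The last 10% of the gene body held 9 of the 28 (32.1%), against 38.4% of all. The first 10% held 4 (14.3%), 2 from PCLO and 1 each from VTI1A and ONECUT2, against 6.62% of all. In 6 genes (RGS3, PLEKHG4B, ALPK3, VTI1A, LCOR and MKI67) at least 1 region lay in the last 10%, and in ONECUT2 the furthest lay at 86.7%. No test was made of these differences.

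**Figure D3:**
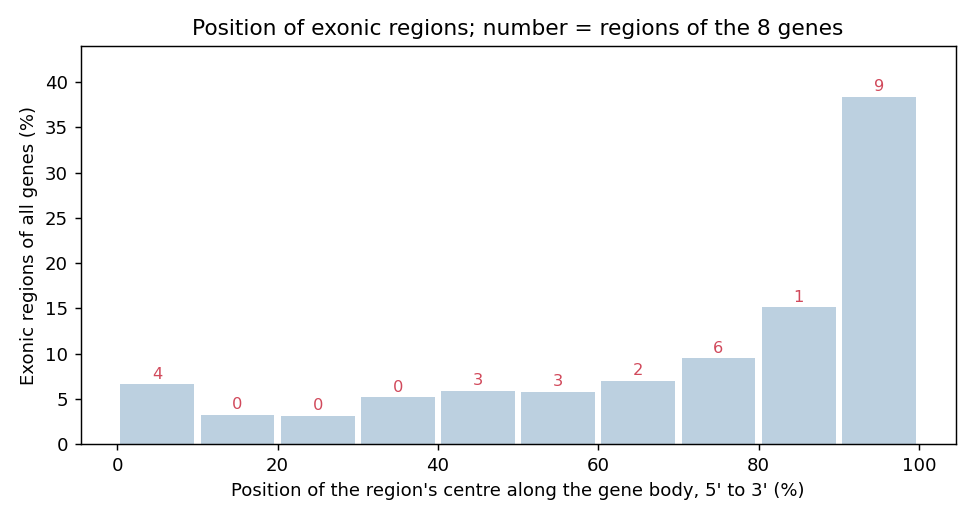
Share of all 2328 exonic regions with a known strand in each 10% of the gene body from 5′ to 3′ (bars), with the number of regions of the 8 genes in red above each bar. The final bin held 38.4% of all regions and 9 of the 28, and the first bin 4 of the 28.

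Region widths in the 8 genes ran from 702 bp (RGS3) to 3388 bp (VTI1A), with a median of 1455.5 bp and quartiles of 1037 and 1982 bp. All exonic regions of protein-coding genes had a median of 1293 bp and quartiles of 1002 and 1835 bp. Of the 28, 7 were over 2 kb (25%), against 20.1% of all, and none was over 5 kb. The genes differed among themselves: the median was 862.5 bp in RGS3 and 1045 bp in VTI1A, but 1962 bp in ALPK3 and 2279 bp in PLEKHG4B. In MKI67 the 3 widths lay within 149 bp of each other, whereas in VTI1A and LCOR the widest was over 3 times the narrowest.

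**Figure D4:**
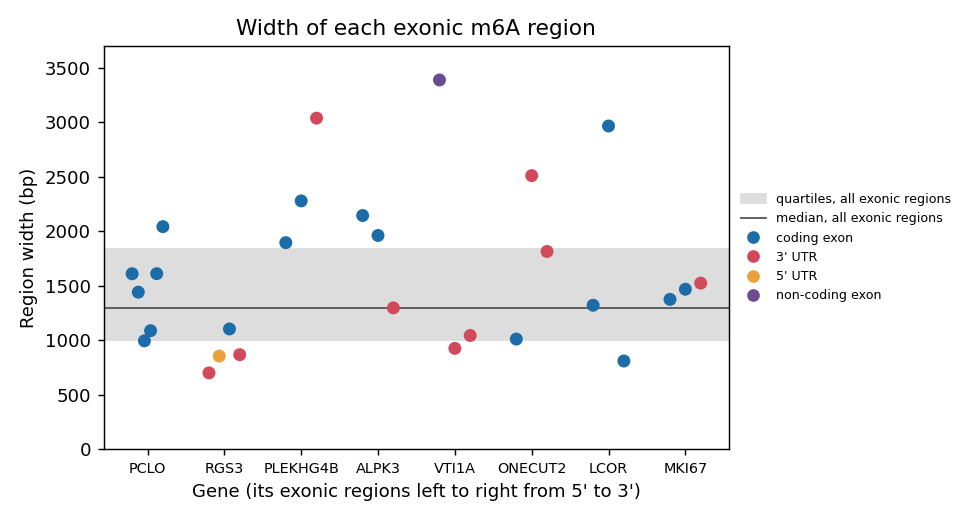
Width in bp of each of the 28 exonic regions, by gene and from 5′ to 3′ within a gene, coloured by feature, with the median (line, 1293 bp) and quartiles (grey band, 1002 to 1835 bp) of all exonic regions of protein-coding genes. All 3 PLEKHG4B regions lie above the band, and 3 of the 4 RGS3 regions lie below it.

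The gaps between neighbouring exonic regions of a gene had a median of 17.7 kb over the 20 pairs in the 8 genes, from 843 bp in LCOR to 365382 bp in VTI1A. Over all 272 such pairs in protein-coding genes the median was 10.1 kb. Of the 20 gaps, 5 were under 5 kb (25%), against 39.0% of all, and 3 were within 1 annotated exon (15%), against 23.5% of all. Those 3 pairs were in ONECUT2, LCOR and MKI67. The gene bodies were long as well, with a median of 125 kb. The median was 81.2 kb in the 12 other genes with 3 or more exonic regions and 80.7 kb in genes with exactly 2. It was 35.9 kb for all genes with an exonic region and 24.1 kb for all protein-coding genes. Exon lengths were not in the tables, so counts per exonic length could not be given.

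**Figure D5:**
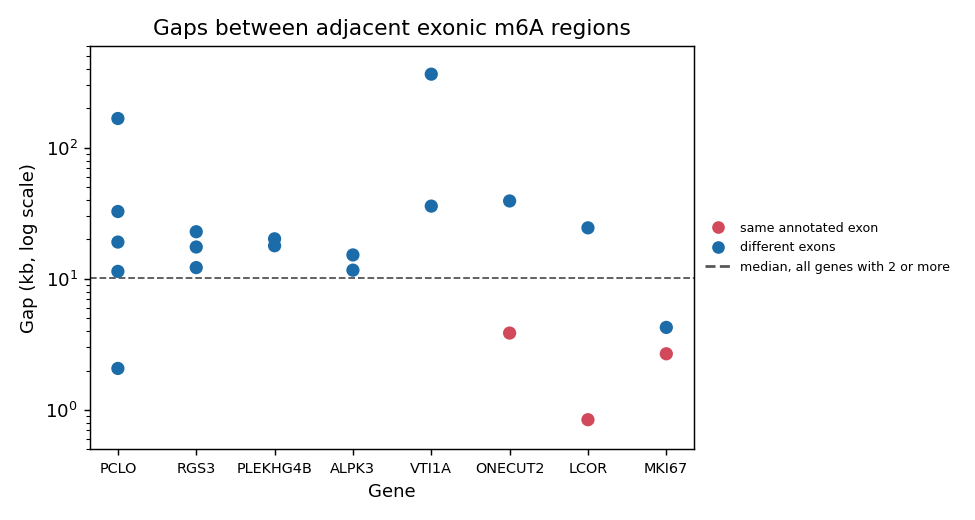
Gap in kb (log scale) between each pair of neighbouring exonic regions in the 8 genes, in red where both were annotated to the same exon, with the median of all 272 pairs in protein-coding genes as a dashed line (10.1 kb). All gaps of RGS3, PLEKHG4B, ALPK3 and VTI1A lie above the line, and both of MKI67 lie below it.

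Among the genes with the most similar counts outside the 8, ranked by the count and then by the bases covered, were FAT4 (5 exonic regions), ANKRD33B and FAT1 (3 each). FAT4 and FAT1 encode atypical cadherins. ANKRD33B had all 3 of its regions in exon 4 of 4, so a single exon carried the whole count. In FAT1 the regions were in exons 2, 10 and 27 of 27. Like PLEKHG4B and ALPK3, it had regions in internal coding exons and 1 in the last exon.

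Related genes of each member were taken from lists by family or function. Outside the members, 20 of the 97 listed genes had at least 1 region in an exon (20.6%, with an interval from 13.1 to 30.0%). Among all protein-coding genes the share was 12.8%. None of the 97 held more than 2, which 0.0997% of all protein-coding genes did. In the lists that follow only exonic regions are counted, unless the gene body is named. With any region over the gene body, 39 of the 97 had one. The matching share of all protein-coding genes is not given, for this count or for a single list. By any overlap with the gene body, the protein-coding genes with 3 or more regions also rose, from 20 to 633. No list was tested. In the CUT homeobox list, 3 of 6 genes other than ONECUT2 held an exonic region (ONECUT1, CUX2 and CUX1), and ONECUT3 and SATB1 were among those with no exonic region. ONECUT1, the closest paralog, had a coding region in exon 1 of 2, at 3.08% of the gene body, and a region in exon 2 of 2 of a non-coding transcript, at 92.7%. In ONECUT2 the regions of exon 1 and exon 2 were at 2.38%, 75.9% and 86.7%.

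In the list of nuclear receptor corepressors, 4 of 10 other genes held 1 exonic region each. LCORL, the paralog of LCOR, had it in exon 8 of 8 and coding, as LCOR had, with 1117 bp at 76.1% of the gene body. NRIP1 had 1 of 4079 bp in its last exon, CTBP2 also had its region in the last exon, and CTBP1, GPS2 and HDAC3 held none in exons. Among alpha kinases, ALPK2 held coding regions in exons 4 and 5 of 13 and TRPM6 held 1 in exon 26 of 39, while ALPK1, EEF2K and TRPM7 held none in exons. ALPK2 and ALPK3 thus both had regions in 2 neighbouring internal exons.

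In the list of the presynaptic active zone, 3 of 16 other genes held an exonic region. A region anywhere over the gene body was held by 8, with no matching share of all protein-coding genes given. BSN encodes bassoon, the large scaffold related to piccolo, and had 1 exonic region, coding, in exon 5 of 12 (1184 bp), where PCLO had 6. ERC1 had 2 in exon 16 of 16 and RIMS2 had 1 in exon 30 of 30, each of a non-coding transcript, and ERC2, PPFIA1 and PPFIA2 held none in exons, although 3 regions overlapped the ERC2 gene body and 2 that of PPFIA1. In the PLEKHG family, PLEKHG3 (exon 16 of 17) and PLEKHG2 (exon 19 of 19) held 1 coding region each out of 7 other genes, and PLEKHG1, PLEKHG4 and PLEKHG5 held none in exons.

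Of 20 other RGS genes only RGS12 held an exonic region, coding, in exon 2 of 18 (5%, interval 0.127 to 24.9%). RGS1, RGS10 and RGS11 were among those with none in exons, although 2 regions overlapped the RGS10 gene body. Of 18 other SNARE genes of the Golgi and endosomes, BET1L (exon 3 of 3) and GOSR1 (exon 9 of 9) held 1 exonic region each, both in the 3′ UTR as 2 of the 3 in VTI1A were. BET1, GOSR2 and SEC22B held none in exons, although 2 regions overlapped the GOSR2 gene body. Of 15 other genes of mitotic chromosomes and kinetochores, CENPF, KNL1 and ASPM held exonic regions and AURKB, BIRC5 and BUB1 did not. CENPF, a large kinetochore protein, had 3441 bp in exon 12 and 2785 bp in exon 13 of 20, both coding and internal like the exon 13 pair of MKI67. KNL1 had 1 of 2672 bp in exon 11 of 27, and ASPM 1 of 1149 bp in exon 18 of 28.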

How the data were processed

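m6A-seq was made from wild-type H1 cells, with 2 input and 2 m6A pull-down libraries; whether replicates were separate cultures is unstated. Per the submitters' processing notes, the build was hg38 and the tools were bedtools 2.30.0, HISAT2 2.2.1, HOMER, MACS2 2.2.7.1, SAMtools 1.6 and Trim Galore 0.6.7, with roles, order and settings unstated; the set's name calls it an intersection of MACS2 peaks, and per the file headers HOMER annotated it on hg38. The authors deposited 9900 region positions in base pairs and HOMER's annotation of each centre, with no score that varied. Hosts were found by looking up the annotated transcript in RefSeq genes (GRCh38.p14; 8523 of 8585 found), with boundaries from that table and strand from a RefSeq promoter table (15843 of 20056 protein-coding genes). Counting was checked on simulated data (Python 3.11.15, pandas 2.3.3, SciPy 1.17.1). The members and lists were chosen with earlier results of these data known. Named were the 8 genes, from each list up to 4 others with a region (most regions, then most bases) and up to 3 without (alphabetical), and the 5 other genes with most regions; a few genes that this rule takes are not reported here. ZDHHC6 and LOC124900629 were named after their positions were seen. Alternatives changed the naming of genes, the features counted, the merging of regions and the width.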

Additional observations from a re-analysis of the deposited data

How the results depend on the processing

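The total of 28 exonic regions in the 8 genes stayed within 1.5 times under all planned settings except coding exons only (17), as did the median number per gene under all of them; the median width and position stayed within their 95% intervals under the settings that could give them. Single genes moved further: by the nearest start ALPK3 and LCOR had 1 region and VTI1A 0; with coding exons only RGS3 and ONECUT2 had 1 and VTI1A 0; MKI67 had 1 with regions under 5000 bp apart merged, PLEKHG4B 1 with regions up to 2000 bp and RGS3 1 with regions of at least 1000 bp. With coding exons only, the last-exon share of the 8 genes was 17.6%, all from LCOR. Under that setting 11 genes held 3 or more regions in place of 20. It left out regions in UTRs and in non-coding exons. The number of genes with 3 or more was 9 with regions under 5000 bp apart merged, 12 with regions up to 2000 bp and 10 with regions of at least 1000 bp. When all features were counted it was 467 by the nearest start, 633 by any overlap with the gene body and 619 both by an overlap of at least 50% and by the centre, and the related genes with a region then rose from 20 to 35, 39, 39 and 39. These last counts, the median position, and the last-exon share without RGS3, VTI1A and LCOR were tried after seeing the data. No paired analysis was possible because the deposited set holds no value per library; for the same reason no replicate could be left out and no stricter threshold set. Depth is unknown.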
